A study of Mus musculus with 2 samples.

Results

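Brush border genes were described in single cells of mouse small intestinal organoids: Sis, Mgam, Lct, Treh, Anpep, Enpep, Mme, Dpp4, Alpi and Vil1. They are 10 of the 31053 genes in the deposited matrix and were taken as a list of names, with no threshold on their values. Of these, 9 encode enzymes of the apical membrane and Vil1 encodes villin, a structural protein without enzyme activity in digestion. The organoids, cultures in which intestinal crypt cells form a closed epithelium, were kept untreated (control) or given melatonin, and the series title places the work in intestinal regeneration with YAP and prostaglandin E2. For each of these 2 groups, 3 independent organoid lines were pooled on culture day 3 into 1 droplet-based 3' library, so line-to-line variation cannot be seen. The files of the 2 samples were identical in 3 of 3 cases, and neither labels nor headers say which suffix of the barcodes was which treatment. The matrix was therefore handled as 1 sample whose barcodes end in suffix 1 (set 1) or suffix 2 (set 2). No comparison of melatonin with control was made, and every difference between the sets lacks a direction with respect to treatment.

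The brush border is the dense carpet of microvilli on the luminal face of absorptive enterocytes. Its membrane carries hydrolases that finish the digestion of sugars, peptides and phosphate esters beside the transporters that take up the products. Crypt progenitors express little of most of these enzymes, and their amounts increase as cells mature and move up the villus. Lactase is characteristic of the suckling period in mammals, while sucrase-isomaltase and trehalase are characteristic of the period after weaning. Several of the peptidases have further names as cell surface antigens: aminopeptidase N (Anpep) is CD13, neprilysin (Mme) is CD10, and dipeptidyl peptidase 4 (Dpp4) is CD26.

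A barcode was taken as a cell when it had 500 or more genes, 1000 or more UMIs (unique molecular identifiers, each a counted RNA molecule) and no more than 20% mitochondrial UMIs. Set 1 kept 2300 of 12364 barcodes with a median of 29872 UMIs, and set 2 kept 1766 of 9442 with a median of 28759. No barcode sequence was shared between the kept cells of the sets, against 29 shared sequences among all barcodes. Levels are summed UMIs of a gene relative to all UMIs of the same cells (CPM, the usual scale of count data), with exact Poisson 95% intervals, and cell shares carry 95% Clopper-Pearson (exact) intervals. With 1 pool a set, cells are not replicates, no test was possible, and all intervals cover counting error only. Cells were assigned to classes by summed levels of marker genes, none of which is a brush border gene of the list. The enterocyte-like gate asked for at least 20000 CPM over 10 markers, among them Fabp1, Apoa1 and Rbp2, and took in 100 cells of set 1 (4.35%, interval 3.55 to 5.26) and 157 from set 2 (8.89%, interval 7.60 to 10.3). The gate is a range of a score and is not set apart by a gap. Between 10000 CPM and the threshold lay 51 and 36 cells of sets 1 and 2, and 38 and 45 between the threshold and 40000 CPM. The score did have a second peak above the threshold, with 31 and 59 cells in the bin from 4.625 to 4.75 (log10). Genes that led the gate by fold were enterocyte genes such as Cyp3a11, Guca2b, Apoa1 and Leap2, and median mitochondrial shares in it were 13.7% and 14.4%, against 9.29% and 9.11% in proliferating-like cells. Because Dpp4, Mme and Anpep also occur on leukocytes and stromal cells, other lineages were checked: Ptprc, Col3a1 and Dcn had 0 UMIs in both sets, which allows levels of up to 0.0487 and 0.0587 CPM (3 UMIs). All 6 leukocyte markers together had 91 UMIs in set 1 and 63 in set 2. The 6 stromal markers had 4750 and 3357, of which 4737 and 3350 were Vim, a gene that stood at 906 CPM in enteroendocrine-like cells and at 0.912 CPM in enterocyte-like cells.

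**Figure D1:**
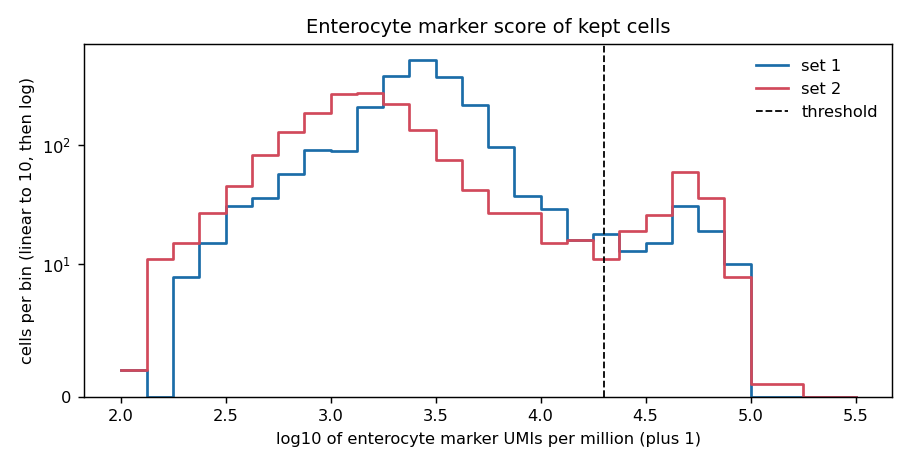
Distribution of the summed level of 10 enterocyte markers (log10 of CPM plus 1) over the kept cells of set 1 and set 2, with the number of cells per bin on the vertical axis (linear up to 10, then log) and the gate threshold of 20000 CPM as a dashed line. Most cells lie far below the threshold, and 100 cells of set 1 and 157 of set 2 lie at or above it.

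Upstream sequence is shown for 4 genes whose windows held letters of factors known to act on enterocyte genes: the disaccharidases Sis, Lct and Treh and the phosphatase Alpi. Each window is the 250 bases before the RefSeq start, build GRCm38.p6, read 5′ to 3′ on the gene's strand, with matches in capitals. RefSeq windows were found for 10 of 10 genes, 12 windows in all because Mme has 3 starts. The Sis window lies at chr3:72967864-72968113 (minus strand), Lct at chr1:128328319-128328568 (minus strand), Treh at chr9:44672983-44673232 (plus strand) and Alpi at chr1:87101607-87101856 (minus strand).
Sis: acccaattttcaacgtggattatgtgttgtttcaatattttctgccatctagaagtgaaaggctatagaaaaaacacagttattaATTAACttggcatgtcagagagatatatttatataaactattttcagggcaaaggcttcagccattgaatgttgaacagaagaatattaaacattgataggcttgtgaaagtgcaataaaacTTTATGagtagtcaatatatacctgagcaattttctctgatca
Lct: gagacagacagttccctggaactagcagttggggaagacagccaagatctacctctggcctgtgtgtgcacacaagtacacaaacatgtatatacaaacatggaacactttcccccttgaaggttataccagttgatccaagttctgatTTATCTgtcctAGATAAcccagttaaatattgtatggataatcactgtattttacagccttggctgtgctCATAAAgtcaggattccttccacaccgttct
Treh: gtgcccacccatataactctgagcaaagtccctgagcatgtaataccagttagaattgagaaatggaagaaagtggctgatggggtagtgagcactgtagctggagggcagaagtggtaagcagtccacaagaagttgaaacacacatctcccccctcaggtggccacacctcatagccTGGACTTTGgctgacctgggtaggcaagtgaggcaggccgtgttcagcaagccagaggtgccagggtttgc
Alpi: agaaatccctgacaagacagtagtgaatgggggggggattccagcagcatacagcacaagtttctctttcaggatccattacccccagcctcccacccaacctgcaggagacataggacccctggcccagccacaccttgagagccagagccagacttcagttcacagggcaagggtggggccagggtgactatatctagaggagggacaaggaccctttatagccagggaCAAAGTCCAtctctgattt

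Both strands of each window were searched for short runs of letters that these factors are known to favour. The letters CAAAGTCCA, an HNF4 site, occurred in Alpi, with the first base 19 bases before the start (-19), and on the reverse strand in Treh (-71). These are 2 of the 12 windows, and 0.384% of all 32851 RefSeq windows of this length hold the same letters. The letters TTTATG, a CDX site, occurred in Sis (-43) and on the reverse strand in Lct (-31), and 10.8% of all windows hold them. An HNF1 half-site, spelled GTTAAT, occurred on the reverse strand of Sis (-165), against 6.43% of all windows. For GATA factors the letters searched were AGATAA. They occurred in Lct (-90, and -101 on the reverse strand), in Mgam (-208 and -66, both reverse) and in Dpp4 (-32), against 9.99% of all windows. No match overlapped a match of another motif. A match is a run of letters and not a measured binding site, and the absence of a match says only that these letters are not in the window.

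The first question was how far the genes mark enterocyte-like cells. In each set 9 of the 10 genes were at least 2-fold higher in enterocyte-like cells than in all other kept cells, on the scale of CPM plus 1, and Dpp4 was the exception in both. Calls and log2 ratios use that scale, which understates the folds of low genes, while ratios and multiples not given as log2 are of the CPM themselves. Among all genes with at least 10 UMIs, 8.12% of 14491 in set 1 and 7.57% of 14136 in set 2 were as much higher. The median log2 ratio of the 10 genes was 3.13 in set 1 and 3.67 in set 2, while that of all genes was -0.29 and -0.35. The folds ranged widely within the list, with lactase at the top and Dpp4, villin and maltase-glucoamylase at the bottom. With at most 10% mitochondrial UMIs 7 genes in set 1 and 8 in set 2 were past 2-fold, against 7.38% and 7.57% of all genes at that limit. Most ratios were smaller there, Sis for example at 1.40 and 2.38 on the log2 scale against 2.86 and 3.69. In set 1 lactase lost its top place at that limit, at 2.37, where Alpi was at 3.75 or more and Mme at 3.02 or more. In sums over cells, fewer cells of a type and less RNA per cell cannot be told apart, so levels within classes are given throughout.

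Among the disaccharidases, Lct (lactase-phlorizin hydrolase, which splits milk sugar) was the most restricted to the gate. Its level was 118 CPM (106 to 130) in enterocyte-like cells of set 1 and 115 CPM (106 to 124) in those of set 2, against 0.308 and 0.417 CPM in the other cells, ratios of 381 and 276 that rest on 18 and 19 UMIs in the other cells. With at most 10% mitochondrial UMIs the Lct log2 ratio was 2.37 in set 1 and 3.79 in set 2, against 6.50 and 6.36 here, and that of Enpep was 2.28 and 4.52, against 4.61 and 5.07. The gate held 95.5% of all Lct UMIs of set 1 and 97.1% of those of set 2. Within the gate Lct was nevertheless patchy: 45% of cells in set 1 (35.0 to 55.3) and 63.1% in set 2 (55 to 70.6) had a Lct UMI, and in enteroendocrine-like cells, which should lack it, 1.08% and 0.352% did. Median depths were 34860 and 34768 UMIs in the enterocyte-like cells and 14491 and 15251 in the enteroendocrine-like cells. Thinned to 2000 UMIs per cell, the expected Lct shares were 18.0% and 20.2% in the gate and 0.160% and 0.0335% in enteroendocrine-like cells.

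Sis (sucrase-isomaltase, which splits sucrose and starch fragments) had most of its UMIs outside the gate in set 1 and most of them inside it in set 2. Its level in enterocyte-like cells was 1604 CPM in set 1 (1560 to 1648) and, in set 2, 1646 CPM (1613 to 1681). Other cells carried 219 and 126 CPM, giving ratios of 7.31 and 13.0. Proliferating-like cells, defined by cell-cycle genes, alone held 50.5% of the Sis UMIs of set 1 and 18.1% of those of set 2, while the gate held 29.0% and 61.1%. Nearly every enterocyte-like cell had a Sis UMI, 97.0% and 98.7%, and so did 85.6% and 69.1% of the proliferating-like cells, whose median depths of 34575 and 35482 UMIs were close to those of the gate. No class that is known to lack Sis was gated, so a background share was not measured for it. The lowest shares were those of revival-like cells, 15.4% (1.92 to 45.4) of 13 cells and 33.3% (17.3 to 52.8) of 30 cells, at median depths of 32882 and 51359 UMIs.

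Treh (trehalase, which splits the sugar of fungi and insects) was intermediate. It stood at 64.9 CPM (56.5 to 74.3) in enterocyte-like cells of set 1 and 55.4 CPM (49.3 to 62.0) in those of set 2, which was 10.4 and 15.8 times the level of other cells. Mgam (maltase-glucoamylase, which releases glucose from starch fragments) was broad. It stood at 119 CPM (108 to 132) and 135 CPM (125 to 145) in the gate and at 39.8 and 44.8 CPM outside it, ratios of 3.00 and 3.01. With at most 10% mitochondrial UMIs, which left 1.25% and 1.55% of cells in the gate, the Mgam log2 ratio was -0.047 in set 1 and 0.44 in set 2, against 1.56 and 1.57 here. The gate held 14.4% and 26.6% of Mgam UMIs and proliferating-like cells held 69.7% and 49.0%.

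Of the 4 peptidases, Mme and Enpep had the largest ratios of the gate to other cells in both sets and Dpp4 the smallest. Mme, an endopeptidase that cleaves many small peptides, was at 162 CPM (149 to 177) in enterocyte-like cells of set 1 and 134 CPM (124 to 144) in those of set 2, 34.6 and 64.2 times the level of other cells. Enpep (aminopeptidase A, which removes acidic residues) was at 45.3 CPM (38.3 to 53.2) and 68.5 CPM (61.7 to 75.7), 50.9 and 63.7 times the other cells, where it had 52 and 49 UMIs. Anpep (aminopeptidase N, which removes neutral residues) was at 323 CPM (304 to 343) and 629 CPM (608 to 651), 8.58 and 7.0 times the other cells. The intervals of the sets do not overlap for any of these 3 peptidases, with Mme higher in set 1 and the aminopeptidases higher in set 2. Dpp4, which removes dipeptides and inactivates incretin hormones, was at 57.9 CPM (49.9 to 66.7) and 65.7 CPM (59.1 to 72.9) in the gate, 1.70 and 1.81 times the other cells. At the 10% mitochondrial limit, which left few cells in the gate, its log2 ratio was -0.075 and -0.70, against 0.75 and 0.84 here. Dpp4 was thus no longer higher in the gate at that limit, and no intervals were computed for these ratios.

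Alpi (intestinal alkaline phosphatase) was at 171 CPM (157 to 186) in enterocyte-like cells of set 1 and 152 CPM (142 to 162) in those of set 2, 49.7 and 35.8 times the other cells. The gate held 73.6% and 81.2% of its UMIs. Its close relative Akp3, whose reads a counting step could exchange with Alpi, was itself at 0.454 and 0.567 CPM over all cells of sets 1 and 2. Vil1 (villin, which bundles actin in microvilli) was at 261 CPM (244 to 280) and 302 CPM (287 to 316) in the gate, 2.62 and 2.67 times the other cells. Villin UMIs were found in 80.4% and 86.4% of proliferating-like cells, and the gate held 12.8% and 24.4% of them.

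**Figure D2:**
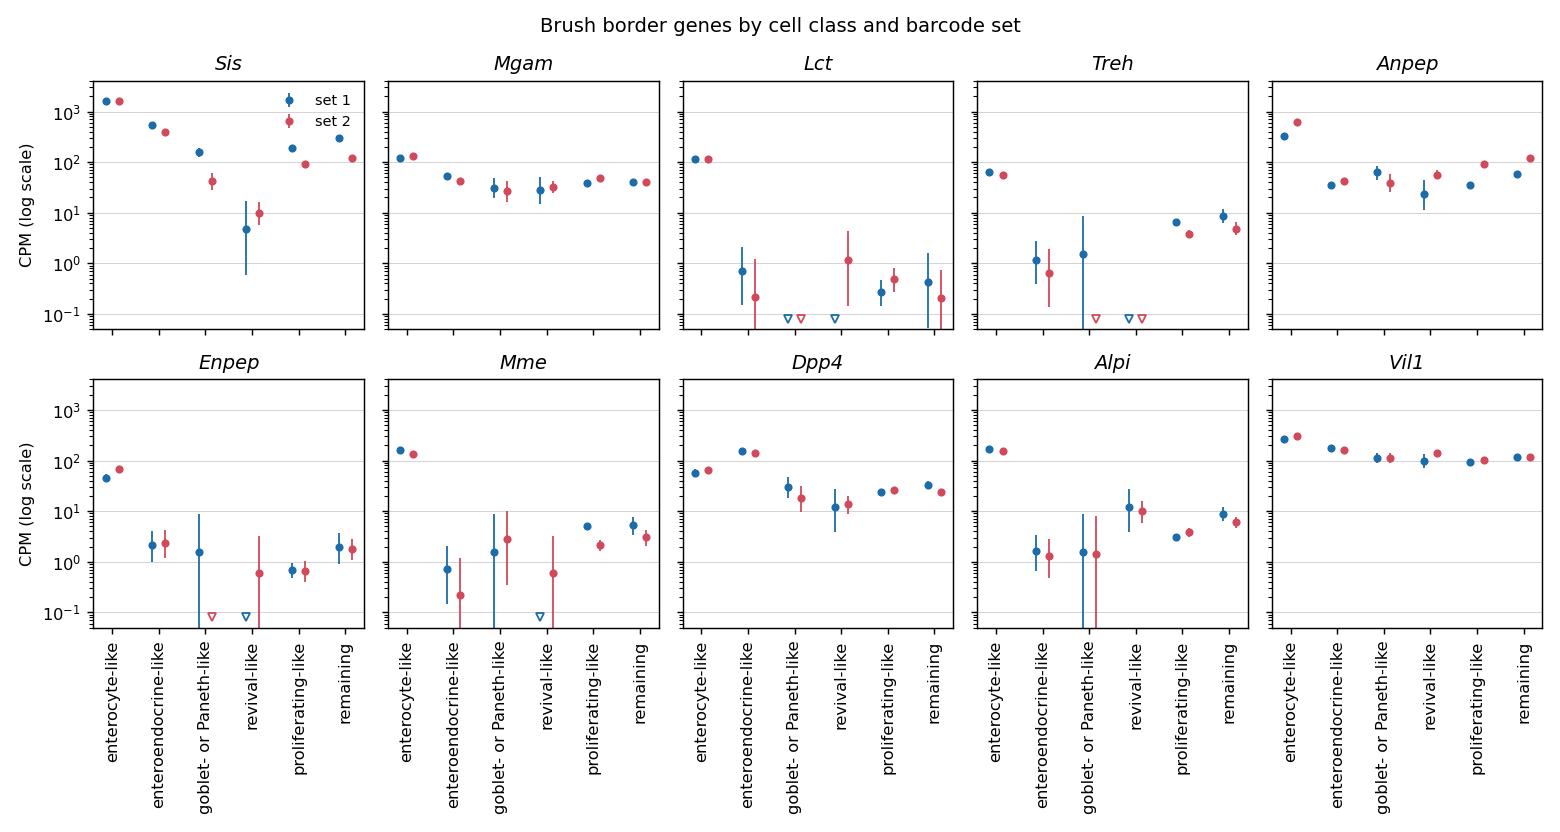
Level of each of the 10 brush border genes (CPM, log axis) in each marker-gated class of set 1 and set 2, with bars for exact Poisson 95% intervals and open triangles at the bottom for 0 UMIs. Lct, Alpi, Mme and Enpep stand high in enterocyte-like cells alone, Sis and Dpp4 also stand high in enteroendocrine-like cells, and Mgam and Vil1 have the lowest gate-to-other ratios after Dpp4.

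Cells outside the enteroendocrine-like class were then ordered by the enterocyte score in 7 bins to see where along it each gene appeared. Villin was present throughout and Alpi appeared before the threshold, whereas lactase was far higher in the bin at or above 40000 CPM than in any other. In the bin from 10000 to 20000 CPM, just under the gate, Vil1 was at 52.1% of its top-bin level in set 1 and 52.9% in set 2. Alpi was at 18.2% and 42.1% there, and Sis at 22.9% and 21.0%. Lct had 0 UMIs in the 45 and 36 cells of that bin, so that its level there may reach 2.68 CPM (set 1) or 2.38 CPM (set 2) at 3 UMIs. From 20000 to 40000 CPM, the lower range of the gate, Lct reached 3.01% of its top level in set 1 and 21.8% in set 2, and Alpi 63.4% and 61.2%.

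Mgam and Dpp4 varied less below the gate than the other enzymes. Over the 5 bins under the threshold Mgam stayed between 23.8% and 36.3% of its top-bin level in set 1 and between 29.1% and 32.7% in set 2. In CPM, Mgam of set 1 was at 54.4 (41.6 to 69.9) just under the gate against 37.4 (35.4 to 39.4) from 2000 to 5000, intervals that do not overlap. Dpp4 stayed between 29.2% and 37.0% and between 28.0% and 36.3%. In the lower range of the gate the sets differed for Anpep, which was at 33.7% of its top level in set 1 and at 96.1% in set 2. The shape of Mme was closer to that of Lct, with 6.65% and 9.90% just under the gate and 16.3% and 39.5% in its lower range.

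**Figure D3:**
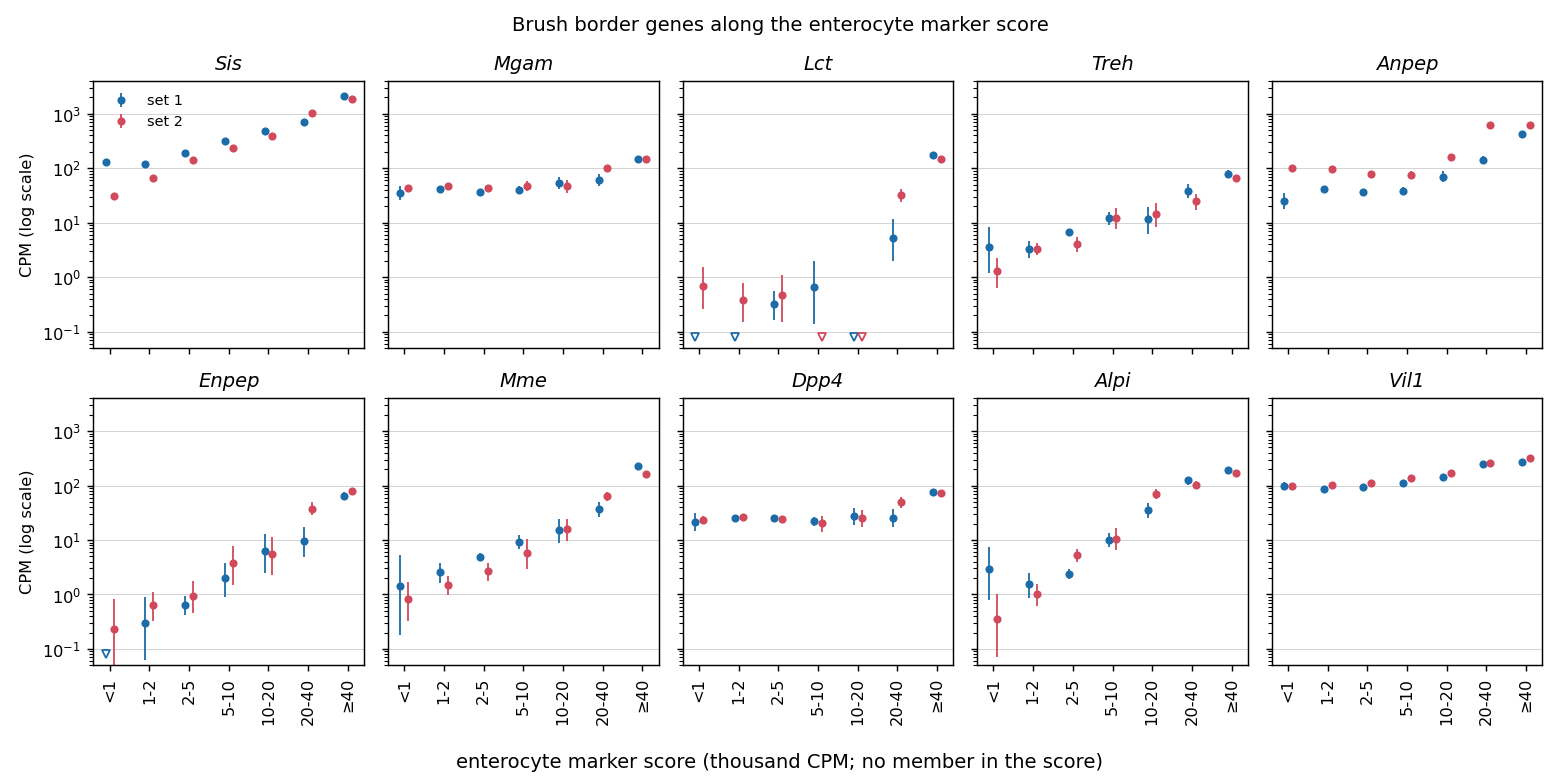
Level of each brush border gene (CPM, log axis) against the enterocyte marker score of the cells in 7 bins, for set 1 and set 2, with exact Poisson 95% intervals and open triangles at the bottom for 0 UMIs. Lct is near 0 until the last bins, Alpi is higher in each bin from 5000 CPM upward, and Mgam and Dpp4 vary little below the threshold of 20000 CPM.

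The highest score range still held cells with and without lactase. At scores of 40000 CPM or more, 29 cells of set 1 had 5 or more Lct UMIs and 20 had none, with median depths of 34502 and 36525 UMIs. In set 2 these were 55 and 27 cells, with 33412 and 38453 UMIs. The cells with lactase carried more of all 9 other genes in set 1 and of 8 in set 2, where Alpi was lower. The share of all genes that were higher in the cells with lactase was not computed. Among the disaccharidases Sis was at 2517 against 1409 CPM in set 1 and at 2191 against 1180 CPM in set 2, and Mgam at 207 against 84.9 CPM and 195 against 90.7 CPM. Among the peptidases Mme was at 356 CPM against 75 CPM in set 1 and at 215 against 69.9 CPM in set 2. Anpep was at 630 against 148 CPM in set 1 and at 807 against 354 CPM in set 2. Alpi was at 199 against 153 CPM in set 1 and 152 against 229 CPM in set 2. The median scores of the 2 kinds of cell were 60077 and 51881 CPM in set 1 and 55992 and 51856 CPM in set 2, and the part of the score in these differences was not tested.

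Pairwise correlations over the enterocyte-like cells, on the log scale, are a description, since the cells share libraries, depth and the gate. Lct and Mme had Pearson's r of 0.79 over the 100 cells of set 1 and 0.54 over the 157 cells of set 2. The starch and sucrose enzymes Sis and Mgam had 0.53 and 0.55. Alpi and Sis had 0.41 in set 1 and -0.10 in set 2, and Alpi and Lct had 0.18 and -0.02. In set 1 Lct was not detected in 55 of 100 cells and its upper quartile was 190 CPM, while Sis was not detected in 3 and had quartiles of 728 and 2586 CPM. The highest values are not given, since they can come from shallow cells in which a few UMIs make a high CPM.

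Levels were also read in enteroendocrine-like cells, the hormone cells of the epithelium. This gate asked for at least 10000 CPM over 10 markers such as Chga, Cck and Gcg and took in 277 cells of set 1 (12%) and 284 from set 2 (16.1%). Against all other cells outside the enterocyte-like gate, 2 of 10 genes were at least 2-fold higher in each set, Dpp4 and Sis. That share is below the background, since 29.5% of all genes in set 1 and 26.2% in set 2 were as much higher in these cells. Mme and Treh were at least 2-fold lower in both sets and Alpi and Anpep in set 2, against backgrounds of 9.92% and 11.5% of all genes. The lower calls of Mme, Treh and Alpi rest on 1 to 6 UMIs in these cells, that of Anpep on 193, and with a pseudocount of 10 CPM none was past the fold in set 1 and Anpep alone in set 2.

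Dpp4 was at 152 CPM (141 to 165) in enteroendocrine-like cells of set 1 and 139 CPM (129 to 151) in those of set 2, ratios of 6.12 and 5.62. These levels are above those of Dpp4 in the enterocyte-like gate, and the intervals do not overlap in either set. The class held 29.4% and 31.7% of all Dpp4 UMIs. Sis was at 535 CPM (513 to 557) and 398 CPM (380 to 417), ratios of 2.74 and 4.15, which is above every class but the enterocyte-like one. At 2000 UMIs per cell a Sis UMI was expected in 45.8% and 38.9% of the enteroendocrine-like cells and in 30.4% and 15.8% of the proliferating-like cells. The unthinned shares were 77.6% and 73.2%, and 85.6% and 69.1%.

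Sis and Dpp4 were also set against the enterocyte markers, a ratio that is low in the enterocyte-like gate by construction, since the markers define it. Per 1000 enterocyte marker UMIs, Sis had 302 UMIs in enteroendocrine-like cells of set 1 and 390 in those of set 2. Proliferating-like cells had 60.1 and 42.5, goblet- or Paneth-like cells 129 and 21.3, and the gate 33.0 and 32.7. The values of goblet- or Paneth-like cells rest on 101 and 30 Sis UMIs, of which 3 cells held 70.3% in set 1 and 80% in set 2. For Dpp4 the ratio was 86.0 and 136 in enteroendocrine-like cells, 7.75 and 11.7 in proliferating-like cells and 24.4 and 9.25 in goblet- or Paneth-like cells. Vil1 had 98.4 and 160 in enteroendocrine-like cells and 29.4 and 45.6 in proliferating-like cells, and Mgam 29.4 and 42.0 against 12.5 and 21.6. Of the other genes Enpep was higher in enteroendocrine-like cells in both sets, Alpi, Treh and Mme were lower, and Anpep and Lct varied by set. The markers themselves were lower in enteroendocrine-like cells, 1771 and 1022 CPM against 3121 and 2201 CPM, which raises each ratio. Lct and Mme had 3 and 1 UMIs each in the whole enteroendocrine-like class of sets 1 and 2. Where the Sis and Dpp4 UMIs of this class came from was not tested.

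Levels within the enteroendocrine-like class differed by hormone. The subsets were cut by thresholds on Cck and Gcg (10000 CPM), Tph1 (500 CPM) and Neurog3 (100 CPM) that were set after values had been seen, so they are a description. Sis was at 969 CPM (888 to 1055) in the 30 cells of set 1 with high Cck, which encodes cholecystokinin, and at 734 CPM (683 to 788) in the 60 such cells of set 2. In cells with high Tph1, the serotonin-making enzyme of enterochromaffin cells, Sis was at 169 CPM (147 to 192) and 60.2 CPM (48.7 to 73.6). Cells with high Gcg, the glucagon-like peptide precursor, had 846 CPM (744 to 957) and 634 CPM (581 to 691), intervals that overlap those of the Cck subset. Cells with Neurog3, the factor of endocrine progenitors, had 670 and 375 CPM. Dpp4 was lowest in the Neurog3 subset in both sets, at 116 CPM (99.9 to 135) and 71.5 CPM (55.3 to 91.0), against 176 to 211 CPM and 144 to 181 CPM in the other 3 subsets, with intervals apart. The cells in no subset had 133 CPM (104 to 168) and 131 CPM (87.0 to 189), intervals that overlap those of the Neurog3 subset in both sets. Vil1 had its highest values in the Neurog3 subset, 204 CPM (182 to 229) in set 1 against 203 CPM (175 to 234) for set 2, but the Tph1 subset had overlapping intervals, 186 CPM in each set (163 to 211 and 165 to 208). In the Cck subsets Vil1 was at 137 and 136 CPM. Enterocyte markers moved with Sis in part: they summed to 4288 and 1633 CPM in the Cck subset and to 975 and 678 CPM in the Tph1 subset. The Neurog3 subset went the other way, with the lowest marker sums, 796 and 415 CPM, and more Sis than the Tph1 subset. The part of the markers in the Sis levels was not tested.

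**Figure D4:**
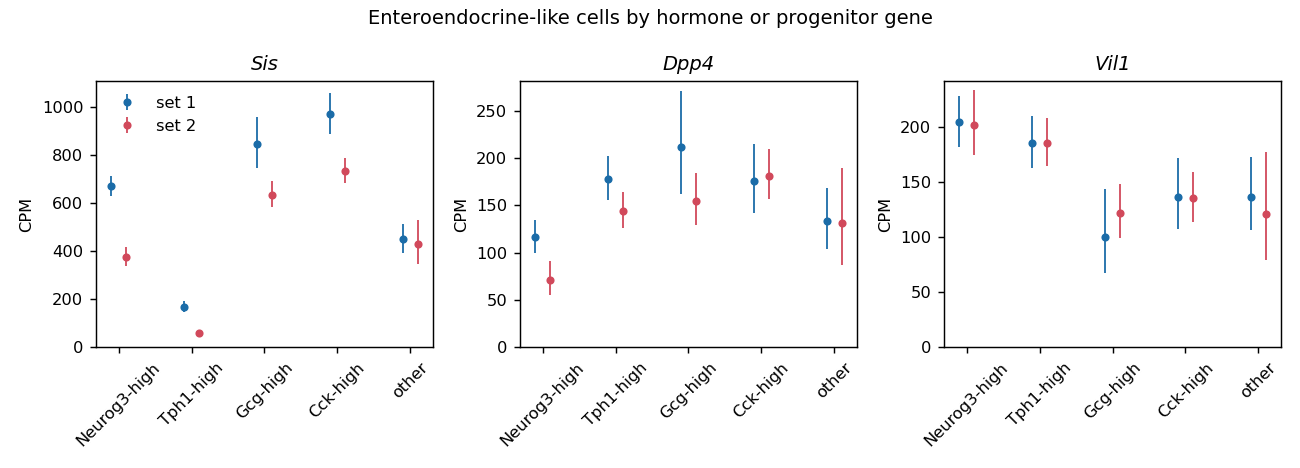
Levels of Sis, Dpp4 and Vil1 (CPM, linear axes of different height) in subsets of the enteroendocrine-like cells cut by Neurog3, Tph1, Gcg and Cck and in the other cells of the class, for set 1 and set 2, with exact Poisson 95% intervals. Sis is lowest in the Tph1 subset in each set, at 169 and 60.2 CPM. Its highest values are in the Cck subset, at 969 and 734 CPM, with intervals that overlap those of the Gcg subset.

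The other secretory and regenerative classes were small and are given as values. Goblet- or Paneth-like cells numbered 30 in set 1 and 20 in set 2. Cells called revival-like from Anxa1, Clu and other regeneration markers numbered 13 and 30. By fold the revival-like class was led by Crct1 and Ly6d, which like Cnfn and Lor further down are squamous epithelium genes and not markers used. The name of the class rests on the markers alone. In goblet- or Paneth-like cells Sis was at 158 CPM (129 to 192) and 42.2 CPM (28.5 to 60.3), but a few cells carried these values: the median cell had 0 Sis UMIs in each set, and 1 cell of set 1 had 48 of the 101. Lct had 0 UMIs there, which allows up to 4.69 and 4.22 CPM. In revival-like cells Sis was at 4.78 CPM (0.579 to 17.3) and 10.0 CPM (5.85 to 16.1), the lowest of its 6 classes in each set. Vil1 was at 98.0 CPM (70.3 to 133) and 144 CPM (127 to 163) in the revival-like cells, below its level in the enterocyte-like gate, and in set 2 above the 100 CPM (96.8 to 104) of proliferating-like cells.

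The sets were compared next, over all kept cells and then within classes. Over all cells 4 of the 10 genes were at least 1.5-fold higher in set 2 and none was as much lower, while 2.46% of 15474 genes were as much higher and 1.4% as much lower. The 4 were Anpep, Enpep, Lct and Alpi, and the median log2 ratio of the list was 0.30 against 0.03 for all genes. Within the enterocyte-like gate 1 gene remained past that fold, Anpep, where 4.59% of genes were higher and 9.76% lower. With at most 10% mitochondrial UMIs, the higher genes over all cells were 1 in number, Anpep, and Sis, Treh and Mme were at least 1.5-fold lower in set 2, against 2.59% of all genes higher and 1.91% lower at that limit. Within the gate 4 genes were then higher (Anpep, Alpi, Lct and Enpep), where 14.3% of all genes were. Several other settings gave 2 higher within the gate, Anpep and Enpep. Which genes differ between the sets therefore depends on whether whole sets or like cells are set side by side and on the mitochondrial limit.

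Anpep was at least 1.5-fold higher in set 2 over all cells and in 3 of the 4 classes compared. Over all cells it was at 52.8 CPM in set 1 (51.0 to 54.6) and, in set 2, 148 CPM (145 to 151), a ratio of 2.80. Within the gate the ratio was 1.95, in proliferating-like cells 2.54 (35.8 and 90.8 CPM) and in the remaining cells, which passed no marker threshold, 2.05 (57.9 and 119 CPM). Enteroendocrine-like cells stood apart with 34.8 CPM (29.3 to 40.9) and 42.0 CPM (36.3 to 48.4), intervals that overlap.

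Enpep was at 3.25 CPM (2.81 to 3.73) over all cells of set 1 and 8.33 CPM (7.56 to 9.17) over those of set 2, a ratio of 2.57. Within the gate its intervals did not overlap either, and its ratio of 1.51 was just under 1.5-fold on the scale of the calls. Lct was at 6.52 CPM (5.90 to 7.19) and 12.8 CPM (11.8 to 13.8) over all cells, a ratio of 1.96, but its levels within the gate, 118 and 115 CPM, had overlapping intervals. Alpi was at 12.3 CPM (11.5 to 13.2) and 20.1 CPM (18.9 to 21.4) over all cells, a ratio of 1.63, and within the gate its level was 171 CPM in set 1 and 152 CPM in set 2. The gate itself held 4.35% of the cells of set 1 and 8.89% of those of set 2.

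Sis was nearly level over all cells, at 293 CPM (288 to 297) and 290 CPM (286 to 295). The gate held 29.0% of the Sis UMIs of set 1 and 61.1% of those of set 2. Outside the gate Sis was lower in set 2 in each class compared. In proliferating-like cells it was at 188 CPM in set 1 (184 to 192) and, in set 2, 93.5 CPM (90 to 97.1), a ratio of 0.498, and in the remaining cells at 295 and 122 CPM, a ratio of 0.413. Within the gate the levels differed by less than counting error. Treh and Mme were likewise lower in proliferating-like cells of set 2, with Treh at 6.55 and 3.80 CPM (ratio 0.580) and Mme at 5.07 and 2.13 CPM (ratio 0.419). These 3 of 10 were the only ones at least 1.5-fold lower in that class, where 1.81% of 13941 genes were, and Anpep was the only one higher, where 1.71% were. The summed enterocyte markers were also lower in proliferating-like cells of set 2, with medians of 2772 CPM in set 1 and 1499 CPM in set 2, and their part in these ratios was not tested.

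In the remaining cells the same 3 genes were lower and Anpep higher, of 9 genes with at least 10 UMIs, against backgrounds of 8.24% lower and 3.27% higher. For Mme (24 and 30 UMIs) and Treh (40 and 48 UMIs) the intervals of the sets overlapped there, whereas Dpp4, under the fold at 33.0 and 24.2 CPM, had intervals apart. The summed enterocyte markers were lower in the remaining cells of set 2 too, with medians of 3332 and 1671 CPM, and their part was again not tested. In enteroendocrine-like cells 0 of 7 genes with at least 10 UMIs passed 1.5-fold either way, where 4.0% of genes were higher and 8.45% lower. Sis came nearest there, at 535 and 398 CPM, a ratio of 0.745 with intervals that do not overlap. Mgam, Dpp4 and Vil1 had ratios of 1.24, 1.12 and 1.23 over all cells, and none of them passed 1.5-fold in any of the classes compared.

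**Figure D5:**
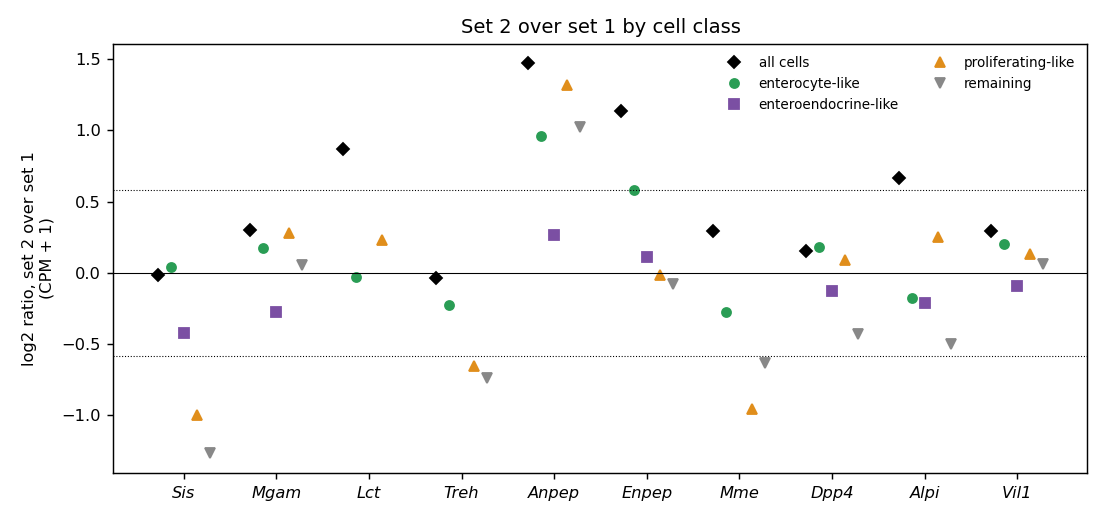
Ratio of set 2 over set 1 (log2, on CPM plus 1) for each brush border gene, over all kept cells and within the enterocyte-like, enteroendocrine-like and proliferating-like classes and the remaining cells. Dotted lines mark 1.5-fold, and genes with fewer than 10 UMIs in a class are left out. Anpep lies above 0 in each, between 0.27 and 1.47, while Sis lies near 0 over all cells and in the enterocyte-like gate and below 0 in the other classes, with a log2 ratio of -1.0 in proliferating-like cells.

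A fixed list held 21 other hydrolases chosen for the brush border. Not all belong to its membrane, since Cndp2 and Lypla1 are enzymes of the cytosol and Pm20d1 is secreted. Of 17 listed genes with at least 10 UMIs, 12 were at least 2-fold higher in the gate in each set, Cndp2 and Pm20d1 among them. Of all genes 8.12% and 7.57% were, and the median log2 ratio of the list was 2.57 in set 1 and 2.30 in set 2. Among the largest were those of Dpep1 (a dipeptidase; 5.88 and 5.77) and Ggt1 (gamma-glutamyl transferase; 5.76 and 4.87). Over all cells, 4 were at least 1.5-fold higher in set 2 and 0 lower, against 2.46% and 1.4% of all genes. Among the largest log2 ratios were those of Mep1b (a meprin subunit; 1.21) and Asah2 (neutral ceramidase; 0.75), and the smallest those of Mep1a (the other meprin subunit; -0.49), Nt5e (-0.44) and Enpp3 (-0.12). The meprin subunits thus lay at opposite ends of the list.

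Genes of microvillus structure, the companions of villin, formed a list of 19, read against the same shares of all genes. Of these, 12 were at least 2-fold higher in the gate in each set, with medians of 1.61 and 1.70. The largest in both was Krt20 (3.80 and 3.15), a keratin of differentiated cells and not itself a part of the microvillus. Next in set 1 were Cdhr2 (an intermicrovillar cadherin; 2.77, and 2.50 in set 2) and Mall (2.60), and in set 2 Mall (2.88) and Espn (an actin bundler; 2.88). Between sets 3 were higher in set 2, Krt20 (1.25), Cdhr2 (0.69) and Cdhr5 (0.67), and 0 lower, with Espn (-0.13), Tmigd1 (-0.13) and Pls1 (0.07) at the low end. Of 18 transcription factors of enterocytes, 6 in set 1 and 8 in set 2 were at least 2-fold higher in the gate, against the 8.12% and 7.57% of all genes, led by Creb3l3 (4.26 and 4.22), Maf (2.40 and 2.58) and Nr1h4 (the bile acid receptor; 1.89 and 2.36). Between sets 2 were higher in set 2, Creb3l3 (0.76) and Maf (0.61), with Nr1h4 next (0.35), and 0 lower, against 2.46% and 1.4%, with Cdx2 (-0.33), Gata6 (-0.33) and Vdr (-0.23) lowest.

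Across all kept cells, each gene's most similar non-member genes were listed by Pearson's r over cells, where cells share depth and libraries. Lct was most like G6pc (glucose-6-phosphatase; 0.74 in set 1 and 0.70 in set 2), 2010106E10Rik and Guca2b, and Mme was most like 2010106E10Rik (0.64 and 0.77), Dpep1 and G6pc. Alpi went with Cyp3a11 (0.59 and 0.66), Slc2a2 and Cyp2b10, and Sis with the same 3 genes (Cyp2b10 0.42 and 0.67). Among the genes most like Anpep were Slc2a2 (0.39 and 0.53) and 2010106E10Rik (0.40 and 0.51). Enpep was most like Fmo5 (0.53 and 0.64), 2010106E10Rik and Cyp3a11, and Treh most like Leap2 (0.43 and 0.63), Gm5485 and 2010106E10Rik. Dpp4 was the exception, with the peptide-hormone processing enzymes Pam (0.49 and 0.52), Pcsk1 (0.49 and 0.50) and Cpe (0.48 and 0.50), of which Cpe is one of the enteroendocrine markers. For Mgam and Vil1 no gene reached 0.3 in each set.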

How the data were processed

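Single-cell 3' RNA libraries were processed with Cell Ranger 3.1.0, bcl2fastq 2.20.0 and STAR 2.7.3a, per the submitters' processing notes; genome build and annotation are not given in the sources used here. The deposited values are raw UMI counts per gene and barcode, without normalization. Whether counting used strand is not given; Treh, Dpp4 and Vil1 overlap Phldb1, Gm13561 and Usp37 on the other strand.

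With Python 3.11.15, numpy 2.4.6, scipy 1.17.1 and pandas 2.3.3, counts were summed over cells and scaled to CPM. Calls and log2 ratios used a pseudocount of 1 CPM, which understates folds of low genes, and genes with at least 10 UMIs; other ratios are of CPM. Classes were gated in the order enterocyte-like, enteroendocrine-like (10000 CPM), goblet- or Paneth-like (10000 CPM), revival-like (5 of 9 markers detected) and proliferating-like (500 CPM). The thresholds were set after the marker scores, but not the brush border genes, had been seen. No doublet caller was run: 47 cells passed 2 or more of the first 4 gates. Shares at 2000 UMIs are hypergeometric expectations. The ratio script was tested on simulated data. No per-sample test applied because the labels' 2 samples hold 1 matrix.

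All 10 genes were named. Of each list the 3 largest and 3 smallest ratios between sets and the 3 largest ratios of the gate were named, and for each gene the 3 most similar genes where r was at least 0.3 in each set. Some genes that this rule selects are not reported here. The genes and lists were chosen with earlier results of these data known.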

Additional observations from a re-analysis of the deposited data

Results flagged for a closer look

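Barcodes left out for their mitochondrial share also held enterocyte-like profiles, which the comparisons above do not use. With scores computed over non-mitochondrial UMIs, 69 of the 2467 barcodes of set 1 with over 20% to 50% mitochondrial UMIs passed the enterocyte threshold (2.80%, 2.18 to 3.53), and so did 81 of 3643 with over 50% (2.22%, 1.77 to 2.76). In set 2 these were 122 of 1886 (6.47%, 5.40 to 7.67) and 106 of 1785 (5.94%, 4.89 to 7.14). Among kept cells scored in the same way the shares were 4.61% and 9.29%. These barcodes were shallow, with median non-mitochondrial UMIs of 2763 and 1295 in set 1 and 3315 and 1774 in set 2. On the CPM scale over non-mitochondrial UMIs, Anpep was at 547 in the barcodes over 20% to 50% that passed the threshold in set 1 and at 1192 in those of set 2, against 365 and 718 in the kept cells. Lct was at 212 and 249 there, against 130 and 129 in the kept cells, and Mme at 293 and 256 against 180 and 151.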

How the results depend on the processing

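The ratios past the fold kept their direction under the alternatives run for each comparison (17 in all, not all for each), except that at most 10% mitochondrial UMIs turned Mgam in the gate over other cells of set 1 to -0.047 (log2). That limit left 1.25% and 1.55% of cells in the gate, gave 1 gene higher and 3 lower (Sis -0.75, Mme -0.74, Treh -0.68) between the sets over all cells, and 4 higher within the gate. Within the gate 2 genes, Anpep and Enpep, were higher with no mitochondrial limit, at least 5000 UMIs per cell, scaling without mitochondrial genes or a pseudocount of 0.1 CPM. Without the 3 cells richest in a gene, or with the gate threshold at 10000 CPM, 2 were higher as well. A pseudocount of 10 CPM left 1 gene higher between the sets and, in enteroendocrine-like cells, 0 lower in set 1 and 1 lower in set 2, and a pseudocount of 0.1 CPM made 4 higher there in set 1. Genes with a UMI in at least 50% of enterocyte-like cells numbered 1 in set 1 and 2 in set 2 at 2000 UMIs, 3 in set 1 at 5000 UMIs, and 9 and 10 without thinning. The gate held 6.57% and 10.9% of cells with its threshold at 10000 CPM, 2.7% and 6.34% at 40000 CPM, and 1.77% and 4.58% with no mitochondrial limit. The limit of 10% mitochondrial UMIs brought Dpp4, which was under the fold, to -0.075 and -0.70 and lowered Lct to 2.37 in set 1. Dpp4 passed 2-fold in the gate in set 2 with no mitochondrial limit (log2 1.12) and in set 1 at 40000 CPM (1.12). Averaging CPM over cells left Alpi under the fold between the sets (0.46). Causes of these shifts were not tested. No paired analysis was possible because both samples hold 1 matrix and no column carries a replicate number. With 1 pool a set, variation between organoid lines was not measured, and levels near 3 UMIs a class, such as 0.714 CPM in enteroendocrine-like cells of set 1, limit what could be seen.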
